A study of Homo sapiens with 3 samples.

Results

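Transcripts of the plasminogen system were measured by RNA sequencing in LX-2, a human line derived from hepatic stellate cells, which deposit the scar of liver fibrosis. The account covers 7 genes chosen by symbol from the 17576 genes of the expression table: the activators PLAU and PLAT, the receptor PLAUR, the docking proteins ANXA2 and S100A10, and the inhibitors SERPINE2 and SERPINB2. All cultures grew in the same serum-containing medium and were taken at 48 h. The first was given DMSO, the vehicle. The second was given the cytokine TGF-b1 (transforming growth factor beta), whose dose the labels do not state, and the third the same cytokine together with DP, a natural small molecule, at 10 μM. Each group was 1 library of 1 cell line, so no difference below has a replicate check, no test was possible, and every comparison is between libraries.

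Plasminogen activators are serine proteases that cut the zymogen plasminogen into plasmin, which digests fibrin and matrix glycoproteins and activates some matrix metalloproteinases and growth factors. Urokinase (PLAU) acts mainly at the cell surface on its receptor PLAUR, while the tissue-type activator (PLAT) acts best on fibrin and on cell-surface docking sites such as the complex of ANXA2 and S100A10. Serpins such as SERPINE2 and SERPINB2 trap the activators in inactive complexes. In the liver, stellate cells are a source of activators and of their inhibitors, and the balance between them bears on how much scar matrix is removed.

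Values are FPKM, which scale fragment counts to transcript length and to the mapped fragments of a library, so levels can be set side by side between genes. Differences are log2((FPKM+1)/(FPKM+1)), which understates the differences of low genes, and differences of 1 or more, 2-fold on this scale, were counted. The cytokine comparison sets TGF-b1 over DMSO, the DP comparison sets TGF-b1+DP over TGF-b1, and the combined comparison sets TGF-b1+DP over DMSO. A filter on the mean of the 3 libraries, set at 1 FPKM, kept 11327 genes, among them all 7 described here. SERPINB2 passed only through the DP library, its mean over the other two being 0.79 FPKM. Summed FPKM ran from 429399 to 546754 between libraries and was highest in TGF-b1. In bulk RNA, fewer cells that express a gene and less RNA per cell cannot be told apart.

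The stellate label was checked against markers. Of 11 stellate genes measured, 8 reached 1 FPKM in at least 1 library, among them VIM at 1936 FPKM with DMSO, 2734 in TGF-b1 and 2800 with DP. TIMP1 was also highest with DP, at 271 FPKM with DMSO, 1111 in TGF-b1 and 1717 with DP. The other stellate genes that reached 1 FPKM were lower with DP than in TGF-b1. ACTA2 was at 21.1, 78.1 and 6.79 FPKM in the order DMSO, TGF-b1 and TGF-b1+DP, TAGLN at 53.9, 220 and 59.8, COL3A1 at 34.9, 33.1 and 10.8, and COL1A1 at 295, 604 and 349. DES, LRAT and LUM stayed below 1 FPKM in all 3 libraries. All 5 hepatocyte markers measured also stayed below 1 FPKM, with sums of 0.34 to 0.51. The summed level of 5 macrophage markers was 54.5, 26.1 and 57.6 FPKM, most of it from CD68 (48.5, 21.3 and 54.8). CD14 was at 4.77, 2.94 and 0.96 FPKM and CSF1R at 0.48, 1.25 and 1.52, while PTPRC was at most at 0.58. Of 5 endothelial markers, 4 stayed below 1 FPKM, and the summed level of all 5 was 1.03, 0.77 and 1.99 FPKM. PECAM1 gave 0.48, 0.66 and 1.71 FPKM of these sums. The sum of 4 cholangiocyte markers was 16.1, 21.3 and 10.6 FPKM, mostly SOX9 and KRT7, with EPCAM and KRT19 below 1. The part of these markers in the results was not tested.

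Start-site regions are shown because 3 of the genes (SERPINB2, PLAUR and PLAU) were the ones higher with DP than with TGF-b1, and because ANXA2 and S100A10 encode partners that differed unequally. Each line gives 250 bases before to 50 bases after a start site, from RefSeq (GRCh38.p14), with matches to any of 8 motifs in capitals. Both strands were searched, and the letters of each motif are given below the sequences with the share of all windows of this length that hold it.
SERPINB2, chr18:63887455-63887754, plus strand: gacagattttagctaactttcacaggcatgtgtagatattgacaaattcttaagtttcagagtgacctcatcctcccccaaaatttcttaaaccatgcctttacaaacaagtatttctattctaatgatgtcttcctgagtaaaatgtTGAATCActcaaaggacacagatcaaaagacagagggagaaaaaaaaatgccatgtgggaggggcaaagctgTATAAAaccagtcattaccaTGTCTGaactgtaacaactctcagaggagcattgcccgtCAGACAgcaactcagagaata
PLAUR, chr19:43670120-43670419, minus strand: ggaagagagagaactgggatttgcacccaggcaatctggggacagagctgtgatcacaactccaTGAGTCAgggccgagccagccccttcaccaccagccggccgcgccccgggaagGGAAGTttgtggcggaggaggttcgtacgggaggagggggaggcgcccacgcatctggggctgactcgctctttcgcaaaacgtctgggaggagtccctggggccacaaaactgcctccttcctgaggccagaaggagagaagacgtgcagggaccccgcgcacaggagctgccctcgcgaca
PLAU, the second of 2 start sites, chr10:73910882-73911181, plus strand: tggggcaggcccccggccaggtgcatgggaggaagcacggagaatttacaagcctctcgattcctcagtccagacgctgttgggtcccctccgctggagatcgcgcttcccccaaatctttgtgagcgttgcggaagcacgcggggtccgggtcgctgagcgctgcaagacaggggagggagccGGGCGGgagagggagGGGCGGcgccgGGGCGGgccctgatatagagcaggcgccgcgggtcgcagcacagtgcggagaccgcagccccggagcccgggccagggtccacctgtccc
ANXA2, chr15:60397937-60398236, minus strand: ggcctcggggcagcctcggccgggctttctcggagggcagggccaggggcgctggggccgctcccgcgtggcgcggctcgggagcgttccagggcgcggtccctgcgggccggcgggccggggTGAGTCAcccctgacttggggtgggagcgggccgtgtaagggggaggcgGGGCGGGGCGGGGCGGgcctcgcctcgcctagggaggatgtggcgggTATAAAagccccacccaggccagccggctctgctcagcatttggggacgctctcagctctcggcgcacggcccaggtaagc
S100A10, chr1:151993810-151994109, minus strand: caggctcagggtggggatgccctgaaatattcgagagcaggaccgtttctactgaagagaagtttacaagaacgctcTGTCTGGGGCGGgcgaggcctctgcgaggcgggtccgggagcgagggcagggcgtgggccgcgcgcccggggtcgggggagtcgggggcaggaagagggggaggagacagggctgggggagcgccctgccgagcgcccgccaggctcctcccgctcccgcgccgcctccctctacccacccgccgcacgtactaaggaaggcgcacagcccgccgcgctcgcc
An AP-1 match (TGANTCA) lay 102 bases before the SERPINB2 start, 186 before that of PLAUR and 127 before that of ANXA2. It occurred in 7.7% of all 35116 windows. SERPINB2 and ANXA2 also held a TATA box match (TATAAA), 30 and 31 bases before the start, against 11.5% of windows. Matches to the SMAD motif CAGACA, found in 16.9% of windows, lay 10 bases before and 30 bases after the SERPINB2 start, 173 before the S100A10 start and 41 after the first PLAU start. Matches to the SP1 motif GGGCGG, found in 45.0% of windows, were the only ones in both SERPINE2 windows and at the second PLAU start, which held 3, as did ANXA2, where neighbouring matches share 1 base. S100A10 held 1, at 167 bases before its start. The ETS motif GGAAGT, in 22.8% of windows, lay 133 bases before the PLAUR start. No window of these genes held the NF-kB motif GGNNTTTCC, found in 6.3% of windows. The same was true of the CRE motif TGACGTCA at 1.8%. It was also true of the TEAD motif GGAATG at 14%. Windows were found for 6 of the 7 genes, with PLAT the other, and a match is a description of letters only.

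**Figure D1:**
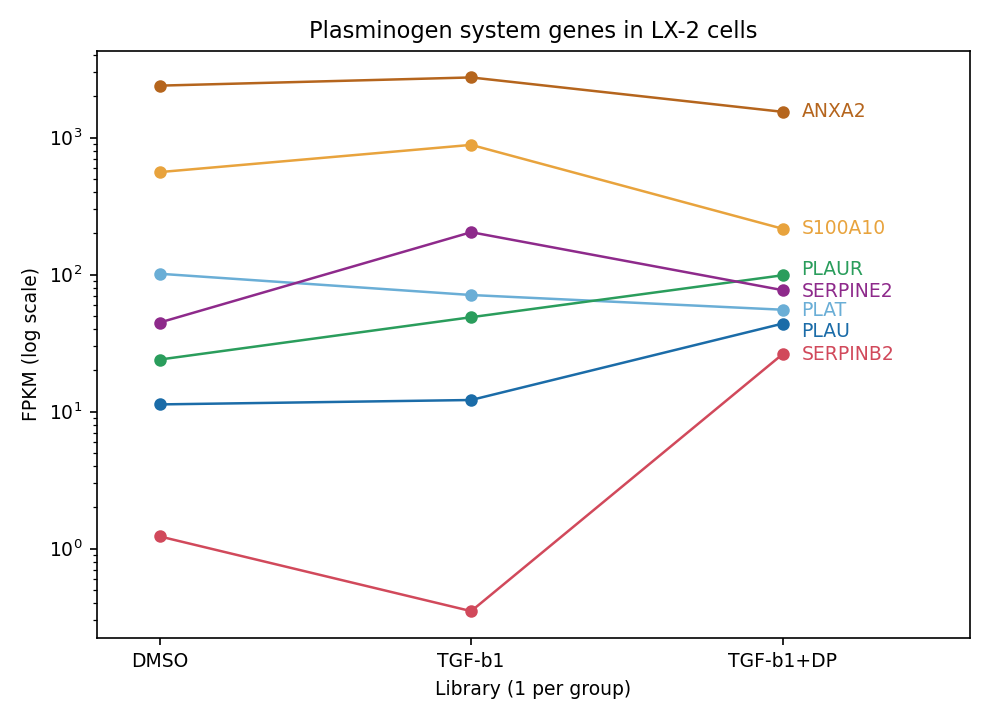
FPKM (log scale) of each of the 7 genes in the DMSO, TGF-b1 and TGF-b1+DP libraries, 1 library per group, with lines joining the values of a gene. ANXA2 and S100A10 lie above the other genes in every library, and SERPINB2 lies at 0.35 FPKM in TGF-b1 and at 26.4 with DP.

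The activators went different ways. PLAU (gene ID 5328, chromosome 10, 73909177 to 73917497, plus strand, GRCh38), the urokinase gene, was at 11.3 FPKM with DMSO, 12.2 with TGF-b1 and 44.0 with TGF-b1+DP. The DMSO and TGF-b1 libraries lay close together and the DP library well above both. The log2 difference was 0.10 in the cytokine comparison, a value that fell to -0.18 when libraries were scaled to equal FPKM totals. It was 1.77 in the DP comparison and 1.87 in the combined comparison, where 84 of the 11327 kept genes had a larger difference. On the deposited values the DP library held 3.61 times the PLAU level of TGF-b1. Of the exonic bases of PLAU, 916 (31.1%) lie opposite those of C10orf55 on the other strand. The sources used here give no strand setting, so reads of this pair cannot be told apart.

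PLAT (gene ID 5327, chromosome 8, 42175233 to 42207724, minus strand), the tissue-type activator gene, was at 102 FPKM with DMSO, 71.1 with TGF-b1 and 55.5 with TGF-b1+DP. Its level was highest in DMSO and lowest with DP, the opposite order to PLAU. The log2 differences were -0.51 in the cytokine comparison, -0.35 in the DP comparison and -0.86 in the combined comparison, all within 1. Scaled to equal FPKM totals, PLAT was at -0.01 in the DP comparison. PLAU made up 10.0% of the summed FPKM of both activators under DMSO, 14.6% under TGF-b1 and 44.2% under TGF-b1+DP. The sum itself was 113, 83.2 and 99.5 FPKM, so the makeup shifted towards PLAU more than the sum moved.

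PLAUR (gene ID 5329, chromosome 19, 43646095 to 43670547, minus strand), the membrane-anchored urokinase receptor, was at 24.0 FPKM with DMSO, 48.9 with TGF-b1 and 99.1 with TGF-b1+DP. Each library held about the same multiple of the one before it in that order, 2.04 and then 2.02 on the deposited values. On the log2 scale the difference came just under 1 in the cytokine comparison and just over it in the DP comparison. Median-of-ratios scaling put these at 1.18 and 0.98, so each call rested on the scaling. In the combined comparison the difference was 2.0, and 69 kept genes had a larger one. Receptor and ligand were not in a fixed proportion. The PLAUR level exceeded that of PLAU 2.12-fold in DMSO, 4.02-fold in TGF-b1 and 2.25-fold with DP.

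The docking genes were the most abundant of the group. ANXA2 (gene ID 302, chromosome 15, 60347134 to 60402883, minus strand), a calcium-dependent membrane-binding protein, was at 2399 FPKM with DMSO, 2754 with TGF-b1 and 1544 with TGF-b1+DP. It ranked 7th, 12th and 17th from the top among all genes of these libraries. The log2 difference was 0.20 in the cytokine comparison, which became -0.10 at equal FPKM totals and -0.12 with adjustment for length and GC content. With DP it was -0.83 against TGF-b1 and -0.63 against DMSO, both within 1. A transcript of the pseudogene ANXA2P2 matches ANXA2 at 98.4% identity over 1020 bases, so reads may be split between them and the ANXA2 level is uncertain.

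S100A10 (gene ID 6281, chromosome 1, 151982915 to 151994390, minus strand), the small calcium-binding family protein that pairs with annexin A2 and carries the plasminogen-binding tail, was at 561 FPKM with DMSO, 886 with TGF-b1 and 216 with TGF-b1+DP. It was lowest with DP by a wide margin and highest in TGF-b1. The log2 difference was 0.66 in the cytokine comparison, -2.03 in the DP comparison, where 27 kept genes had a lower value, and -1.37 in the combined comparison. The ratio of ANXA2 to S100A10, which no scaling of a library can move, was 4.28 under DMSO, 3.11 under TGF-b1 and 7.14 under TGF-b1+DP. Both partners had their lowest level with DP, and only the S100A10 difference reached 1.

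The inhibitors differed in which library held their highest level, TGF-b1 for SERPINE2 and TGF-b1+DP for SERPINB2. SERPINE2 (gene ID 5270, chromosome 2, 223975112 to 224039319, minus strand), or protease nexin, a secreted inhibitor of thrombin, urokinase, the tissue-type activator and plasmin, was at 44.7 FPKM with DMSO, 204 with TGF-b1 and 77.1 with TGF-b1+DP. The TGF-b1 library stood above both others, and the DP library lay between. The log2 difference was 2.17 in the cytokine comparison, where 30 kept genes had a larger one, -1.39 in the DP comparison and 0.77 in the combined comparison. The first and second of these differences share the TGF-b1 library.

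SERPINB2 (gene ID 5055, chromosome 18, 63871692 to 63903890, plus strand), a clade B serpin that inhibits both activators and is largely kept inside the cell, was at 1.23 FPKM with DMSO, 0.35 with TGF-b1 and 26.4 with TGF-b1+DP. It was a low transcript without DP, with 29.9% of genes lower in TGF-b1, and 82.0% lower with DP. The log2 difference was 4.34 in the DP comparison, where 3 kept genes had a larger one, and 3.62 in the combined comparison. The pseudocount sets these sizes: at 0.1 FPKM they were 5.88 and 4.31, and at 5 FPKM 2.55 and 2.33. In the cytokine comparison the difference was -0.72, or -1.56 at 0.1 FPKM. SERPINB2 shares 547 exonic bases with SERPINB10 on the same strand. SERPINB10 was at 0.15, 0.08 and 0.03 FPKM in the same order of libraries, too low to be kept by the filter or ranked. How reads of the shared bases were assigned was not tested.

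**Figure D2:**
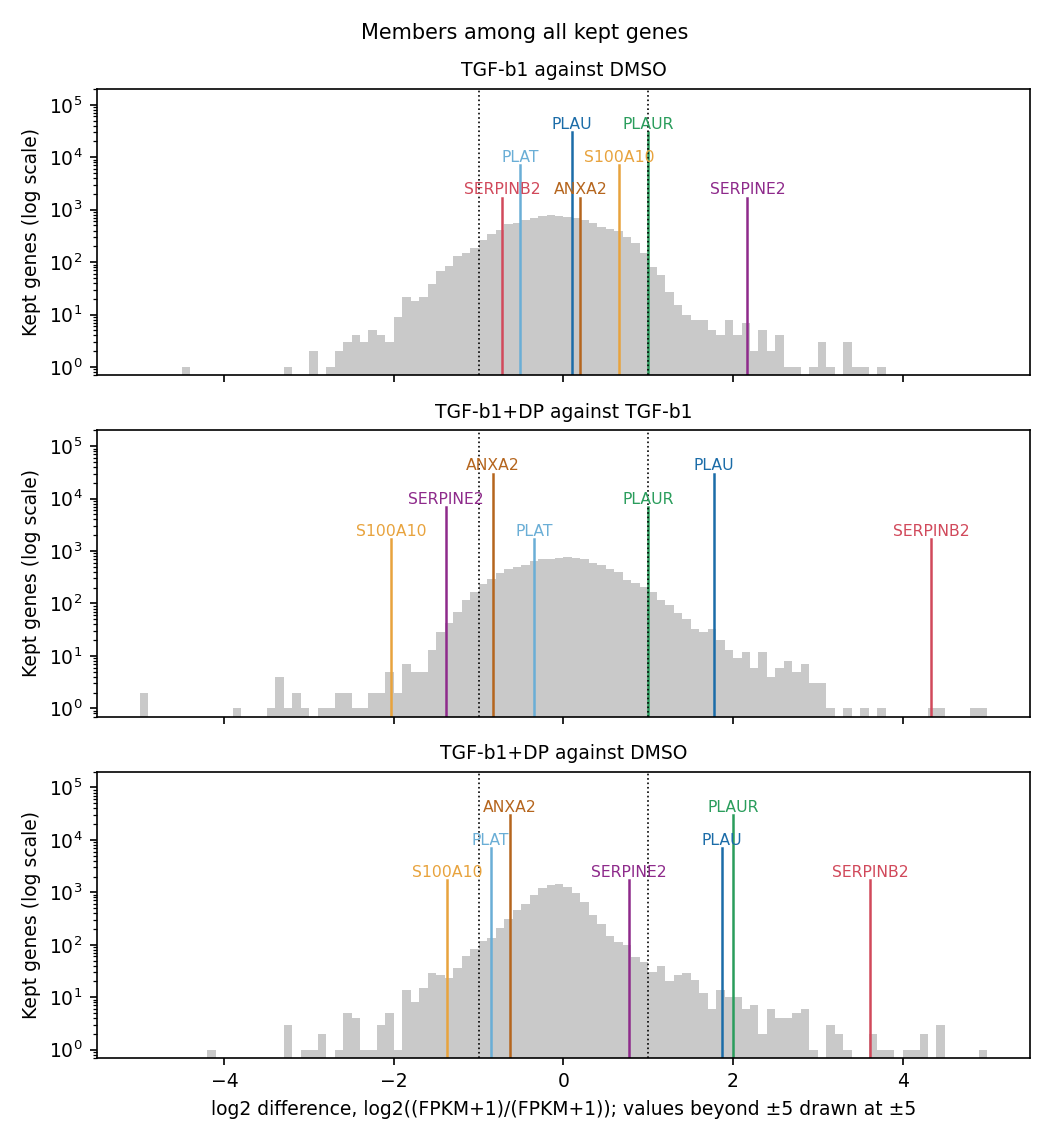
Histograms of the log2 difference of all 11327 kept genes in each comparison (grey, counts on a log scale), with coloured lines at the 7 genes and dotted lines at -1 and 1. SERPINE2 stands at 2.17 in TGF-b1 against DMSO, and SERPINB2 at 4.34 and S100A10 at -2.03 on opposite sides in TGF-b1+DP against TGF-b1.

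Counted over the group, 1 of the 7 genes (SERPINE2) was higher in TGF-b1 relative to DMSO, against 2.31% of all kept genes, and 0 were lower, against 6.73%. The median difference was 0.20, beside -0.10 over all kept genes. In the DP comparison, 3 were higher (SERPINB2, PLAU and PLAUR), against 6.19% of kept genes, and 2 were lower (S100A10 and SERPINE2), against 4.26%. The median was -0.35, beside 0.00 over all kept genes, with genes past 1 on both sides. SERPINB2, kept through its DP value, had to differ in this direction, and without it 2 of 6 were higher with DP in either comparison. In the combined comparison, 3 were higher (SERPINB2, PLAUR and PLAU), against 2.45%, and 1 was lower (S100A10), against 2.88%, with a median of 0.77 beside -0.10. These comparisons share libraries in pairs, and the counts are of few genes.

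Activator and inhibitor transcripts were next set against each other within each library, which removes the scaling of the library. Trends with length and GC content are not removed, and no ratio between genes was recomputed with that adjustment. The summed FPKM of PLAU and PLAT was 2.46 times that of SERPINE2 and SERPINB2 in DMSO, 0.407 times in TGF-b1 and 0.962 times with DP. The activators were the more abundant side in DMSO, the inhibitors in TGF-b1, and the sums were nearly level with DP. Without SERPINB2, which overlaps SERPINB10, the ratio with DP was 1.29, with the activators then the more abundant side. The inhibitor sum was 46.0, 205 and 103 FPKM, and SERPINB2 gave 2.7%, 0.2% and 25.5% of it. PLAU alone was at 0.253 of the SERPINE2 level under DMSO, 0.0596 under TGF-b1 and 0.571 under TGF-b1+DP. PLAT was at 2.27, 0.348 and 0.720 of SERPINE2, so PLAT exceeded SERPINE2 in DMSO only among these libraries. Other inhibitors of the activators are not part of these sums, and transcript ratios do not measure protein or its activity.

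**Figure D3:**
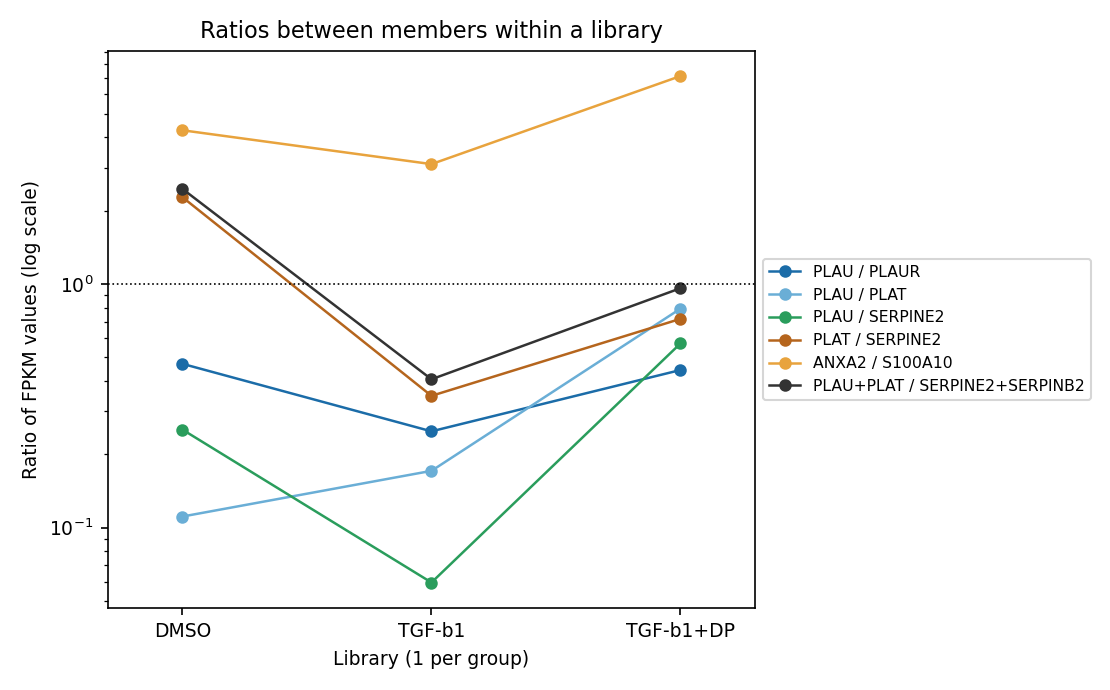
Ratios of FPKM values between genes within each library (log scale; dotted line at 1), 1 library per group. The ratio of both activators to both inhibitors runs from 2.46 in DMSO to 0.407 in TGF-b1 and 0.962 with DP, while ANXA2 to S100A10 is highest with DP at 7.14.

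In order of level, ANXA2 and S100A10 came first in all 3 libraries and SERPINB2 last. Between them the order was PLAT, SERPINE2, PLAUR and PLAU in DMSO, SERPINE2, PLAT, PLAUR and PLAU in TGF-b1, and PLAUR, SERPINE2, PLAT and PLAU with DP. With 1 library per group there is no spread against which to judge neighbours in these orders.

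Further genes of the system were taken from lists. The counts below stand beside the shares of all kept genes given above, 2.31% higher and 6.73% lower in the cytokine comparison, 6.19% and 4.26% in the DP comparison, and 2.45% and 2.88% in the combined comparison. Among 9 other inhibitors of the activators or of plasmin, TFPI2 was the only one kept by the filter. TFPI2, a Kunitz-type inhibitor that acts on plasmin, was at 59.0 FPKM with DMSO, 110 with TGF-b1 and 782 with TGF-b1+DP. Its log2 difference was 0.89 in the cytokine comparison and 2.81 in the DP comparison. The former reached 1.07 with median-of-ratios and 1.02 with upper-quartile scaling. The others, SERPINI1, SERPINA5, SERPINF2, A2M, PZP, CPB2, SPINT1 and SPINT2, did not reach a mean of 1 FPKM. Plasminogen itself (PLG) was at most at 0.08 FPKM in any library.

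Among 8 kept genes whose products plasmin or the activators can process or release, 3 were higher and 1 lower in TGF-b1 relative to DMSO. THBS1 (1.75), VEGFA (1.5) and TGFB1 (1.33) were higher and MMP1 (-1.08) lower. MMP1 was at -0.90 when scaled by median-of-ratios and at -0.96 by upper quartile, both within 1. In the DP comparison, 2 were higher and none lower. MMP1, interstitial collagenase, whose zymogen plasmin can cut, was at 21.0, 9.43 and 228 FPKM (4.46 in the DP comparison). MMP9, a gelatinase, was at 6.76, 6.75 and 46.5 FPKM (2.62). The median of the 8 was 0.05, or 0.39 at equal FPKM totals, where LTBP1 (1.13) was also higher, -0.02 with upper-quartile scaling and -0.15 with length and GC content adjusted for. TGFB1 (-0.70) was the lowest in the DP comparison. Against DMSO, 4 were higher with DP, MMP1 (3.38), MMP9 (2.61), THBS1 (1.87) and VEGFA (1.49), and none lower, with a median of 1.06.

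Of 15 kept partners and clearance receptors of the urokinase receptor, 3 were lower and none higher in TGF-b1 relative to DMSO. VTN, which encodes vitronectin, a matrix ligand of the receptor, was at 7.35, 1.23 and 0.71 FPKM (-1.90). VTN passed the filter only through its DMSO value, so its lower calls against DMSO were favoured by the filter. IGF2R (-1.34) and LRP1 (-1.03), endocytic receptors, were the other two. LRP1 was within 1 when scaled by median-of-ratios (-0.86) or by upper quartile (-0.91), and at equal FPKM totals 5 genes were lower. ITGAV (0.88), an integrin subunit, was the highest, at 1.04 under median-of-ratios scaling. In the DP comparison, 4 were higher, IGF2R (1.52), ITGA3 (1.16), EGFR (1.16) and MRC2 (1.07), and none lower. MRC2 binds the receptor with urokinase at the cell surface. Against DMSO, ITGAV (1.44) and ITGB1 (1.02) were higher and VTN (-2.29) lower with DP. With length and GC content adjusted for 1 was lower and none higher in TGF-b1, the list median went from -0.57 to 0.35, and none reached 1 in the DP comparison.

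Of 6 other kept docking proteins for plasminogen, none was higher or lower in TGF-b1 relative to DMSO, and 2 were lower in the DP comparison. KRT8, a keratin that binds plasminogen at the surface of some cells, was at 314, 517 and 143 FPKM (-1.85). S100A4, a calcium-binding protein, was at 2.81, 3.80 and 0.80 FPKM (-1.42). ENO1, an abundant glycolytic enzyme that also binds plasminogen, was at 1486, 1519 and 1364 FPKM (-0.16). PLGRKT, a membrane receptor of plasminogen, was at 10.3, 15.4 and 12.2 FPKM (-0.31). The median of the 6 was -0.62, and 1 gene was lower with length and GC content adjusted for. Among 10 proteases that can activate the urokinase precursor, 3 were kept and none reached 1 in any comparison, with CTSL, a lysosomal protease, at 144, 146 and 144 FPKM.

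**Figure D4:**
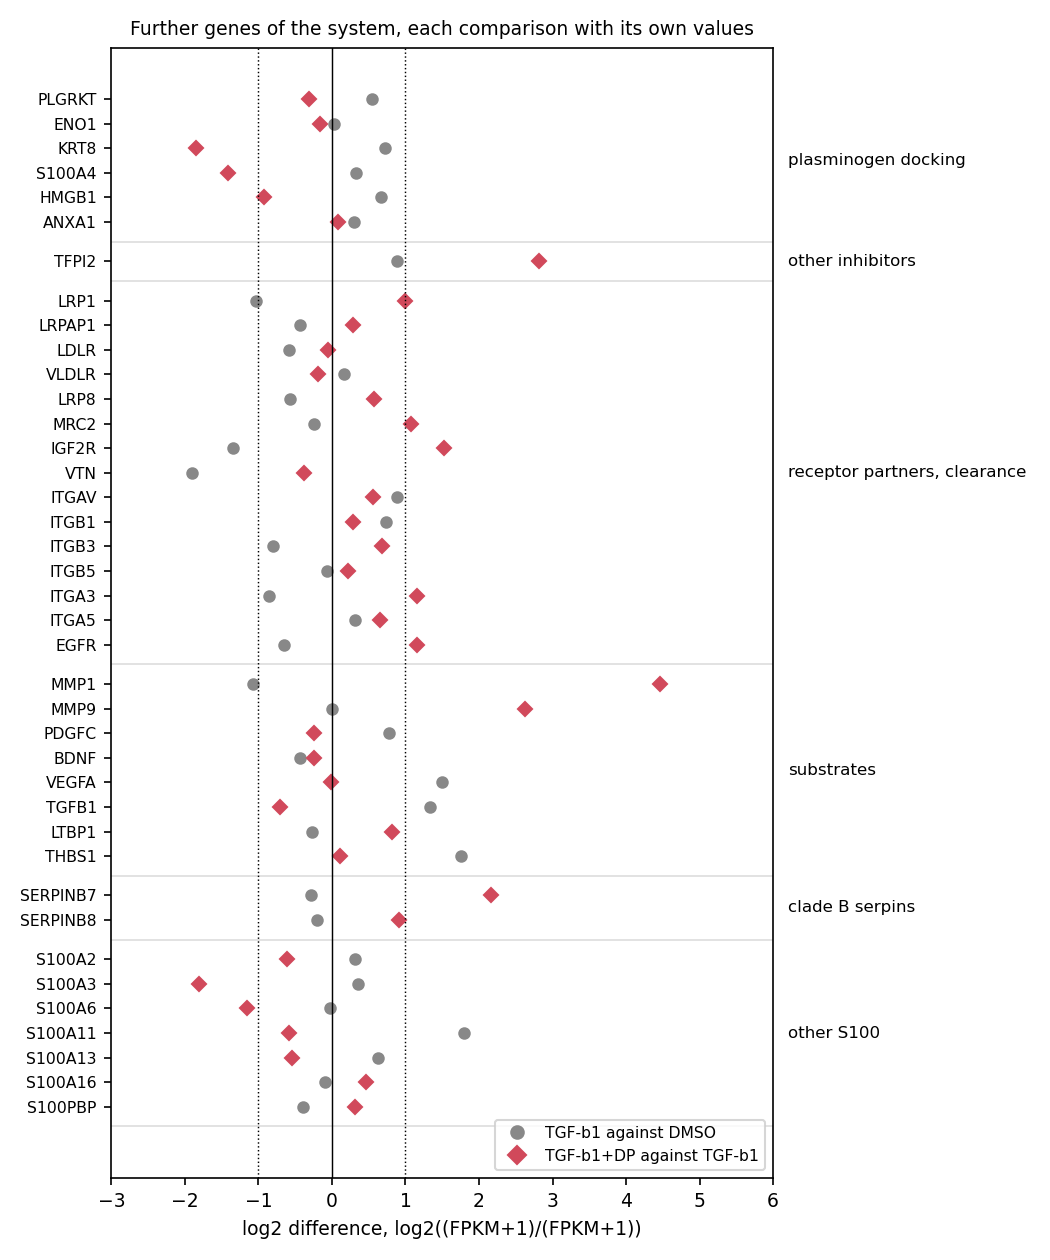
Log2 differences of kept genes in 6 lists related to the system, in the cytokine comparison (grey circles) and the DP comparison (red diamonds), which share the TGF-b1 library. MMP1 (4.46), TFPI2 (2.81) and MMP9 (2.62) lie farthest to the right for DP, and KRT8 (-1.85) and S100A3 (-1.81) farthest to the left.

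For each of the 7 genes the 3 genes nearest in pattern were sought among those with a mean of at least 5 FPKM, by the distance between their pairs of log2 differences from DMSO over the 3 libraries. Nearest to SERPINB2 were MMP1 (distance 0.426), SERPINA1 (0.549) and ESM1 (1.03), and no gene lay within 0.2. PLAU lay nearest to HMGA2 (0.075), PIK3CD (0.093) and AKAP12 (0.141). PLAUR lay nearest to COL6A3 (0.054), SPOCK1 (0.187) and WNT5B (0.197). SERPINE2 lay nearest to LRRC17 (0.044), BOLA2B (0.166) and CCL2 (0.298), and S100A10 to CXXC5 (0.241), KRT8 (0.248) and CENPA (0.288). ANXA2 and PLAT had many like genes, 151 and 66 within 0.2, led by CIART (0.007) and EFEMP2 (0.042). With 3 libraries the patterns rest on 2 differences, so likeness here is only a description. Of the genes named from lists or patterns, TGFB1, THBS1, KRT8, LRRC17 and CENPA have exons that overlap those of a measured neighbour, and BOLA2B is identical to BOLA2 over 1012 bases, so their values are uncertain.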

How the data were processed

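The authors deposited FPKM values, 2 decimals each, in a table whose columns are the 3 libraries, per the file headers. GRCh38.p13 is the build and BWA, Bowtie, Cufflinks and Cuffdiff are tools that the submitters' processing notes name, without role, order or version. Of 17596 lines, 20 held no gene and were left out.

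Differences were computed with a pseudocount of 1 FPKM in Python 3.11.15 with numpy 2.4.6 and pandas 2.3.3, with no further scaling. FPKM is relative to each library, so abundant transcripts move all others. Sequencing depth is unknown, so no counting interval is given. The members and lists were chosen with earlier results of these data known. All 7 genes are described, with the 3 genes nearest in pattern, measured chromosomal neighbours, and, from the lists, genes past the threshold and the extremes. Positions, transcript length and GC content came from GENCODE release 29, which covered 98.6% of genes (longest coding transcript where there was one). For the correction, differences were regressed on log10 length and GC content with squares and product. The computation was tested on simulated data. Alternatives were 3 scalings, pseudocounts, filters, a 1.5-fold threshold, that correction and leaving out genes that share reads. A gene of the stellate marker list is not reported here and was left out of its counts.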

Additional observations from a re-analysis of the deposited data

How the results depend on the processing

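At equal FPKM totals the median over all genes moved by -0.26 in the cytokine comparison and 0.29 in the DP comparison. Median-of-ratios scaling moved it by 0.16 and upper-quartile scaling by 0.11 in the cytokine comparison, and the former by 0.14 in the combined comparison. Of 84 recomputed differences of single genes whose sign could change (3 scalings and the length and GC adjustment), 3 did, all in the cytokine comparison: PLAU (-0.18) and ANXA2 (-0.10) at equal totals, and ANXA2 (-0.12) with length and GC content adjusted for. The number of the 7 genes higher in TGF-b1 relative to DMSO went from 1 to 2 under median-of-ratios scaling, upper-quartile scaling and a pseudocount of 0.1 FPKM, each time through PLAUR (1.18, 1.12 and 1.02), and to 3 at a threshold of 1.5-fold. The share of all genes rose with it, from 2.31% to 5.16%, 3.98%, 3.16% and 12.3%. The number lower went from 0 to 1 at a pseudocount of 0.1 FPKM, with length and GC content adjusted for (SERPINB2 in both, at -1.56 and -1.09) and at 1.5-fold, beside 10.7%, 1.76% and 20.9% of all genes. In the DP comparison, PLAUR fell below the threshold under median-of-ratios scaling (0.98), upper-quartile scaling (0.93) and a pseudocount of 5 FPKM (0.95). The number lower with DP than in DMSO went from 1 to 3 at 1.5-fold, beside 10.2% of all genes in place of 2.88%. SERPINB2 overlaps a measured gene, and without it the counts of higher genes with DP were 2. In an alternative chosen after seeing the data, PLAU, ANXA2 and SERPINB2, which overlap or match any annotated gene, were left out. Of the 4 others, 1 (PLAUR) was then higher with DP than with TGF-b1 and than in DMSO, beside 6.19% and 2.45% of all genes. PLAU and SERPINB2, also counted as higher before, were among the genes left out. SERPINE2 stayed between 1.87 and 2.35 in the cytokine comparison, and S100A10 between -2.11 and -1.55 in the DP comparison, over these alternatives. No paired analysis was possible because each group was 1 library. Depth is unknown, so the counting error of low values, such as SERPINB2 at 0.35 FPKM in TGF-b1, cannot be given.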

Other observations

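Chromosomal neighbours and family members of the 7 genes showed values of their own. SERPINB7, the nearest measured gene before SERPINB2 in a run of clade B serpins, was at 2.69 FPKM with DMSO, 2.04 in TGF-b1 and 12.6 with DP, a log2 difference of 2.16 in the DP comparison. SERPINB8 in the same run was at 12.1, 10.3 and 20.2 FPKM (0.91, and above 1 at equal FPKM totals or with length and GC content adjusted for). Of 7 other clade B serpins listed there and measured, these were the 2 kept by the filter.

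S100A11, the nearest measured gene after S100A10, was at 283, 988 and 662 FPKM. It was higher in TGF-b1 relative to DMSO (1.80) and with DP than in DMSO (1.22), where S100A10 was lower. Among 8 other genes kept from the S100 list, 3 were lower in the DP comparison, S100A3 (-1.81), S100A4 (-1.42) and S100A6 (-1.16), and none was higher. At equal FPKM totals S100A6 was at -0.81. With length and GC content adjusted for 1 was lower, and the list median went from -0.59 to 0.14. Among 9 other kept annexins none reached 1 in the DP comparison, with ANXA6 (0.97, or 1.31 at equal FPKM totals) the highest and ANXA5 (-0.58) the lowest. ANXA8 (1.02 in the cytokine comparison, 0.81 at equal FPKM totals) has a near copy, ANXA8L1 (0.55), so its value is uncertain.

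CADM4, the measured gene before PLAUR, was at 22.0, 8.75 and 5.55 FPKM, lower in both treated libraries than in DMSO (-1.24 and -1.81), the opposite direction to PLAUR. VCL and CAMK2G beside PLAU, and IKBKB and AP3M2 beside PLAT, lay within 1 in every comparison. So did BNIP2 and ICE2 beside ANXA2, THEM4 beside S100A10 and MRPL44 beside SERPINE2. SERPINB8 and VCL have exons that overlap those of a measured neighbour, so their values are uncertain.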
